A study of Mus musculus with 9 samples.

Results

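Expression of the genes that defend cells against oxidants and electrophiles was examined in mouse embryoid bodies (EBs) exposed to silver nanoparticles (AgNPs) or to silver ion (Ag+). The set was a fixed list of 48 genes, chosen by symbol, that hold the transcription factor Nrf2 (gene symbol Nfe2l2) with its regulators and targets, the enzymes of glutathione and NADPH metabolism, the thioredoxin and peroxiredoxin systems, superoxide dismutases and ferritin, with selenoproteins left out. A probe set that names the gene alone was found for 41 of the 48, among 22180 gene symbols on the array with such a probe set, and where a gene had several the one with the highest mean over the 9 arrays was used. Tkt, Gstm5, Prdx1 and Ftl1 are named by the array's annotation only in probe sets shared with other genes and were given no value, and G6pdx, Prdx5 and Prdx6 were not analysed here.

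EBs are aggregates in which embryonic stem cells begin to differentiate, and here they came from 1 C57BL/6 mouse embryonic stem cell line and formed in hanging drops after removal of the factors that hold the cells pluripotent. From day 3 they were kept for 24 h without silver (control), or with 5 µg/ml of silver, given as citrate-coated AgNPs of 20 nm or as Ag+. Each group had 3 biological replicates, each on its own Affymetrix Mouse Gene 2.0 ST array, and the lower Ag+ dose of the study was not analysed here. The samples are labelled as embryonic stem cells, and the measured RNA held some pluripotency and early germ layer markers at high signal. Nanog lay at the 86.6th percentile of mean signal, Eomes at the 93.1st and the visceral endoderm gene Cubn at the 88.2nd. Other markers of the same cell types lay lower, with Pou5f1 at the 64.5th, Esrrb at the 38.6th, Mesp1 at the 55.7th and Afp at the 39th. The globin genes Hbb-bh1, Hba-x and Hbb-y lay at or below the 15.9th. A whole EB was measured, so fewer cells of a type and less RNA per cell cannot be told apart.

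In resting cells the adaptor Keap1 holds Nrf2 and passes it on for destruction. Oxidants and electrophiles modify cysteines of Keap1, Nrf2 accumulates, and with small Maf proteins it binds the antioxidant response element (ARE) in front of its target genes, a site from which the repressor Bach1 is displaced when haem rises. The targets make and recycle glutathione, the tripeptide thiol that reacts with electrophiles and soft metals such as silver, supply NADPH, degrade haem, store iron and reduce peroxides. Control of Nrf2 lies largely at the level of its protein, which arrays do not measure.

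ARE letters were looked for in the promoters of the members in RefSeq (build GRCm38.p6), from 250 bases before to 50 bases after the start of transcription and on both strands, with 41 of the 48 members matched to 51 promoters. Hmox1, Gclc, Gsr, Gsta4, Abcc1, Prdx6 and Sod3 had no match. The ARE core TGACNNNGC stood in 10 of the 51 promoters (19.6%) and in 12.4% of all 32851 promoters, and the form TGAGNNNGC, searched after the first results had been seen, in 9 (17.6%) and 17.6%. The AP-1 site TGANTCA, which can lie inside either form, stood in 8 (15.7%) and 7.8%, and the heat shock element GAANNTTC in 4 (7.8%) and 7.9%. The letters TGCNCNC, a loose form of the metal response element, stood in 26 (51.0%) and 51.0%. The sequences below are those of Gclm and Srxn1, which had their highest values with AgNPs, of Osgin1, which moved little, and of Glrx, which fell with Ag+. Capitals mark the ARE core for Gclm, the second form for Srxn1 and Osgin1, and the AP-1 letters for Glrx.
Gclm, chr3:122245398-122245456, plus strand, ARE core on the minus strand: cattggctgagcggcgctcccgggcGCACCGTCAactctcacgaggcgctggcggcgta
Srxn1, chr2:152105454-152105512, plus strand, second ARE form: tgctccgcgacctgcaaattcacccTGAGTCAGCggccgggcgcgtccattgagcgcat
Osgin1, chr8:119437023-119437081, plus strand, second ARE form on the minus strand: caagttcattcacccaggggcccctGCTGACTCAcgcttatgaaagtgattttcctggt
Glrx, chr13:75839762-75839818, plus strand, AP-1 letters: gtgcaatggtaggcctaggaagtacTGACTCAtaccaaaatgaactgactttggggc
The capitals in Srxn1 and Osgin1 hold an AP-1 site within the ARE letters, and those in Gclm do not. These matches describe the letters of the windows and show no binding.

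The values are log2 signals made by the authors with RMA, which corrects background, gives all arrays one distribution and summarises the probes of a set. Groups were compared with limma in one fit of 3 group means over all 9 arrays, two-sided, with Benjamini-Hochberg adjustment over the 25341 probe sets that the annotation names. A gene is called changed at an adjusted p under 0.05, and DEGs by the thresholds of the study's methods (|FC| ≥ 1.5 and an unadjusted p under 0.05) are counted from the same fit. Array medians lay between 5.03 and 5.08. Correlations lay between 0.994 and 0.996 for arrays of a group and between 0.991 and 0.996 for arrays of different groups. With 3 arrays a group the precision is limited. Of the 41 members, 34 had a mean signal above the median of all named probe sets and 2 (Slc7a11 and Mgst2) lay under its 25th percentile. In 14 of the 41, 2 or more arrays of a group had identical values, and in Keap1, Gss and Prdx2 all 3 arrays of a group did. Such ties narrow the spread of a gene within groups, and their cause was not tested.

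With AgNPs, 0 of the 41 members were called, where 0.0868% of all named probe sets were. By the fold change thresholds 1 member, Hmox1, was a DEG, against 0.454% of all named probe sets. At an unadjusted p under 0.05, 5 members were higher and 0 lower (Hmox1, Gclm, Srxn1, Gstm1 and Gsta4; 8.44% of all named probe sets in either direction), and the arrays of the groups did not overlap for 6 higher and 1 lower (10.9%). The t-test of the study's methods gave 6 members at an unadjusted p under 0.05 (3.75% of all named probe sets) and 0 members, as 0 of all named probe sets, after adjustment. Those 6 were Hmox1, Gclm, Gsta4, Gstm1 and Txn1, all higher, and Nfe2l2, which was lower, and Srxn1 was not among them. The median difference of the members was 0.0171 on the log2 scale, and −0.0082 over all named probe sets. Its sign turned without AgNP replicate 1 (−0.0143) or control replicate 3 (−0.0045), and it was 0.0546 without control replicate 1 and 0.0061 without AgNP replicate 3. The 95% confidence interval lay within a 1.5-fold change either way for 40 of the 41, Hmox1 being the exception.

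With Ag+, 4 of the 41 members were called, against 2.28% of all named probe sets. The glutathione transferases Gsta4 and Gstm1 were higher, and the NADPH-producing malic enzyme Me1 and the glutaredoxin Glrx were lower. Both lowered genes, and no raised member, were DEGs by the fold change thresholds (1.67% of all named probe sets). At an unadjusted p under 0.05, 5 members were higher (Gsta4, Gstm1, Srxn1, Gpx8 and Sod1) and 3 lower (Me1, Glrx and Nfe2l2; 13.8% of all named probe sets), and the groups were apart for 5 higher and 5 lower (16.5%). The median difference of the members was −0.0228 on the log2 scale, against −0.0036 over all named probe sets, and 36 of the 41 confidence intervals lay within a 1.5-fold change.

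Compared directly at the same mass dose and time, AgNP-treated EBs had 3 members higher than Ag+-treated EBs (Hmox1, Me1 and Glrx) and 0 lower, against 0.509% of all named probe sets called. The same 3 were DEGs (0.758%). At an unadjusted p under 0.05, 4 members were higher with AgNPs (the same 3 and Gclm) and 2 lower (Cbr3 and Gpx8; 8.31%), and the groups were apart for 7 higher and 2 lower (12.3%). The median difference was 0.0035 (−0.0026 to 0.0347 with each array left out), and 0.0004 over all named probe sets. The comparisons of AgNPs and of Ag+ with control share the 3 control arrays, so an array that is high or low among the controls moves both. The silver forms were matched in mass and not in toxicity or free ion. At this dose the paper reported more cell death in EBs with Ag+ than with AgNPs. In medium without cells, only part of the AgNP silver was released as Ag+ by 24 h. The part of either in these differences was not tested.

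**Figure D1:**
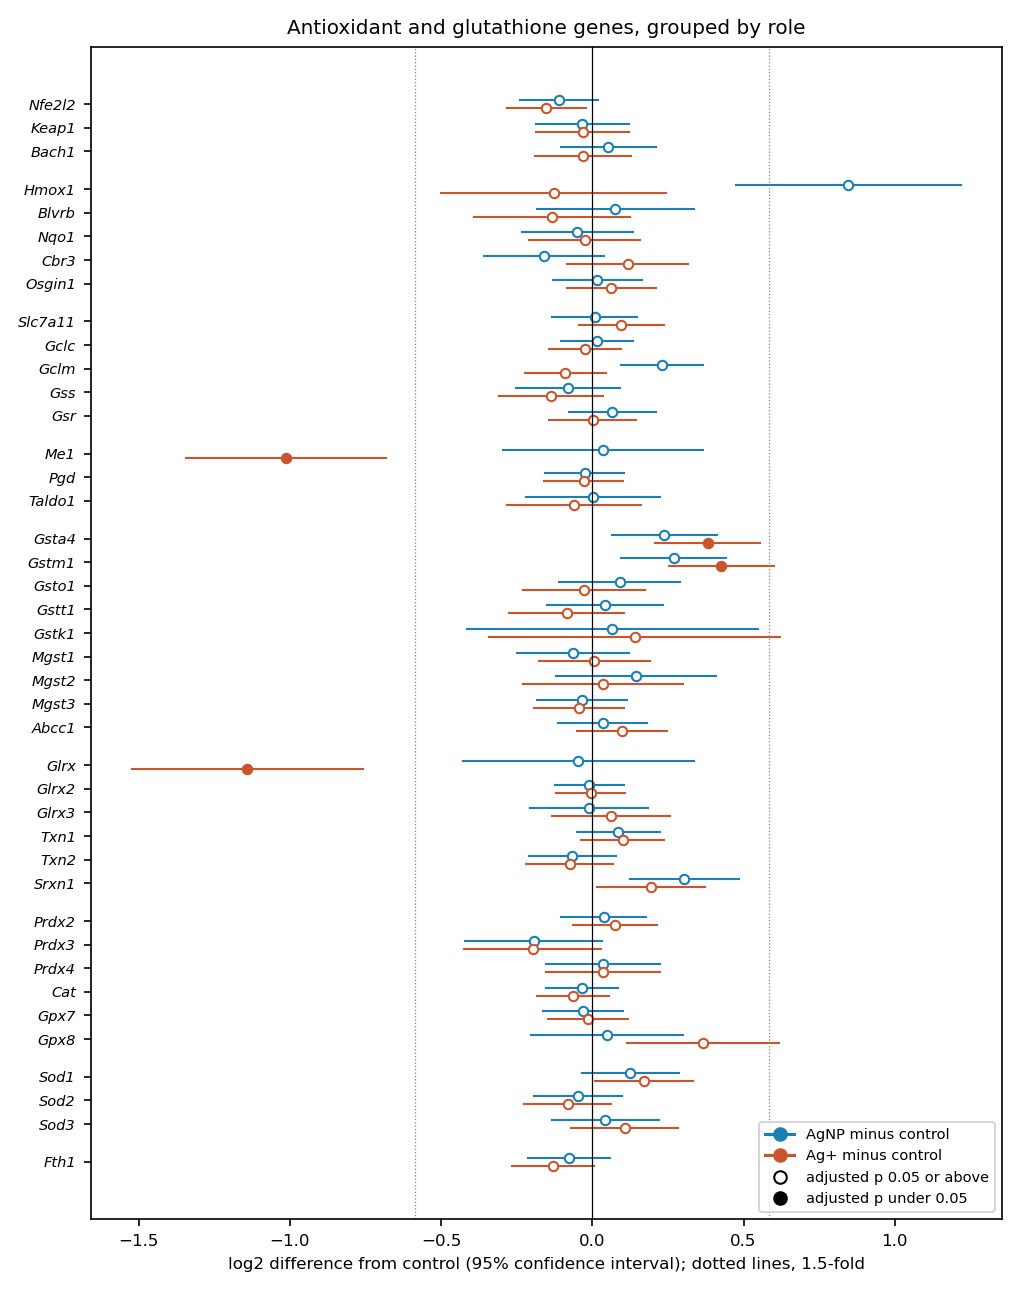
Log2 difference from control with its 95% confidence interval (x axis) for the 41 measured members (y axis, grouped by role), with AgNPs in blue and Ag+ in orange; filled points have an adjusted p under 0.05 and the dotted lines mark a 1.5-fold change. The filled points are Me1, Gsta4, Gstm1 and Glrx with Ag+, and Hmox1 is the member furthest to the right with AgNPs.

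The Nrf2 gene itself did not rise. Nfe2l2 read 8.70, 8.71 and 8.62 in the controls, 8.59, 8.58 and 8.54 with AgNPs and 8.56, 8.46 and 8.56 with Ag+. Every silver-treated array lay below every control. The differences were small, at −0.11 with AgNPs (SE 0.0578, limma adjusted p = 0.64) and −0.15 with Ag+ (SE 0.0578, adjusted p = 0.285). Keap1, the adaptor that marks Nrf2 for degradation, differed by −0.03 with AgNPs and −0.03 with Ag+. All 3 controls, AgNP replicate 1 and Ag+ replicate 2 had the identical value of 6.91 for Keap1. Bach1, the haem-sensitive repressor of the same sites, lay between 7.70 and 7.84 in the controls, between 7.75 and 7.95 with AgNPs and between 7.71 and 7.77 with Ag+, so its groups overlapped. The interval of each difference of these 3 regulators lay within a 1.5-fold change.

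Hmox1, haem oxygenase 1, which breaks haem down to biliverdin, carbon monoxide and iron, had the largest difference of any member with AgNPs. Its control arrays read 7.66, 7.73 and 7.78, its AgNP arrays 8.37, 8.37 and 8.97 and its Ag+ arrays 7.57, 7.39 and 7.83. All AgNP arrays lay above all the others, and replicate 3 stood well above its 2 fellows, while the Ag+ arrays fell on both sides of the controls. With AgNPs the gene was 1.80-fold higher than in control (0.85 on the log2 scale, interval 0.48 to 1.22), but this did not pass the adjustment over all probe sets (limma adjusted p = 0.163), and it was 0.65 to 0.95 with each array left out in turn. With Ag+ the difference was −0.13 (interval −0.50 to 0.24, adjusted p = 0.782). The direct difference between the silver forms was 0.97 on the log2 scale (SE 0.165, 1.97-fold, adjusted p = 0.0451). It lay close to the threshold: without any 1 of the 9 arrays the difference was 0.77 to 1.09 and the adjusted p 0.0728 to 0.201, so the call was lost each time.

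The other haem and quinone enzymes did not move with Hmox1. Blvrb, which reduces biliverdin, differed by 0.08 with AgNPs and −0.13 with Ag+. Nqo1, the quinone reductase often used as the reporter of Nrf2 activity, read 4.23, 4.23 and 4.36 in the controls, 4.07, 4.32 and 4.28 with AgNPs and 4.19, 4.23 and 4.33 with Ag+. Its groups overlapped, with differences of −0.05 (adjusted p = 0.88) and −0.03 (adjusted p = 0.926) and a signal below the median of the array. Osgin1, a stress-induced growth inhibitor, differed by 0.02 and 0.06. Cbr3, a carbonyl reductase, read 4.10, 4.18 and 4.18 in the controls, 3.86, 4.19 and 3.93 with AgNPs and 4.22, 4.23 and 4.36 with Ag+. Its Ag+ arrays lay above all others, but no contrast passed the test, with −0.28 for AgNP minus Ag+ (adjusted p = 0.365).

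In the glutathione synthesis genes, only the modifier subunit had AgNP arrays that stood apart from the controls. Gclm, which raises the efficiency of the enzyme that makes gamma-glutamylcysteine, read 7.50, 7.57 and 7.62 in the controls, 7.84, 7.76 and 7.79 with AgNPs and 7.54, 7.46 and 7.42 with Ag+. The AgNP arrays lay above all the others in a narrow band, and the Ag+ and control arrays overlapped. The difference from control was 0.23 (interval 0.09 to 0.36, limma adjusted p = 0.335) and that from Ag+ was 0.32 (interval 0.18 to 0.45, adjusted p = 0.0724), so neither passed the test. Gclc, the catalytic subunit of the same enzyme, read 8.14, 8.11 and 8.13, then 8.13, 8.13 and 8.17, then 8.13, 8.05 and 8.13 in the same order of groups. Its differences were 0.02 with AgNPs and −0.02 with Ag+, each with an interval inside a 1.5-fold change.

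The remaining genes of this group were flat or hard to read. Gss, which adds glycine to complete glutathione, differed by −0.08 with AgNPs and −0.14 with Ag+, and Gsr, which returns oxidised glutathione to its reduced form, by 0.07 and 0.00. Slc7a11, the cystine transporter, lay near 2.91 in the controls at the 13.1st percentile of mean signal, and its arrays between 2.87 and 3.06 with either silver form could show little.

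Srxn1, sulfiredoxin, repairs overoxidised peroxiredoxins and is a Nrf2 and AP-1 target in the mouse. Its controls read 6.00, 6.24 and 6.28, its AgNP arrays 6.47, 6.54 and 6.43 and its Ag+ arrays 6.36, 6.35 and 6.41. The 3 groups did not overlap, in the order control, Ag+, AgNP, with replicate 1 of the controls lowest. The differences were 0.30 with AgNPs (limma adjusted p = 0.335), 0.19 with Ag+ (adjusted p = 0.32) and 0.11 between the silver forms (adjusted p = 0.775), none past the test.

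**Figure D2:**
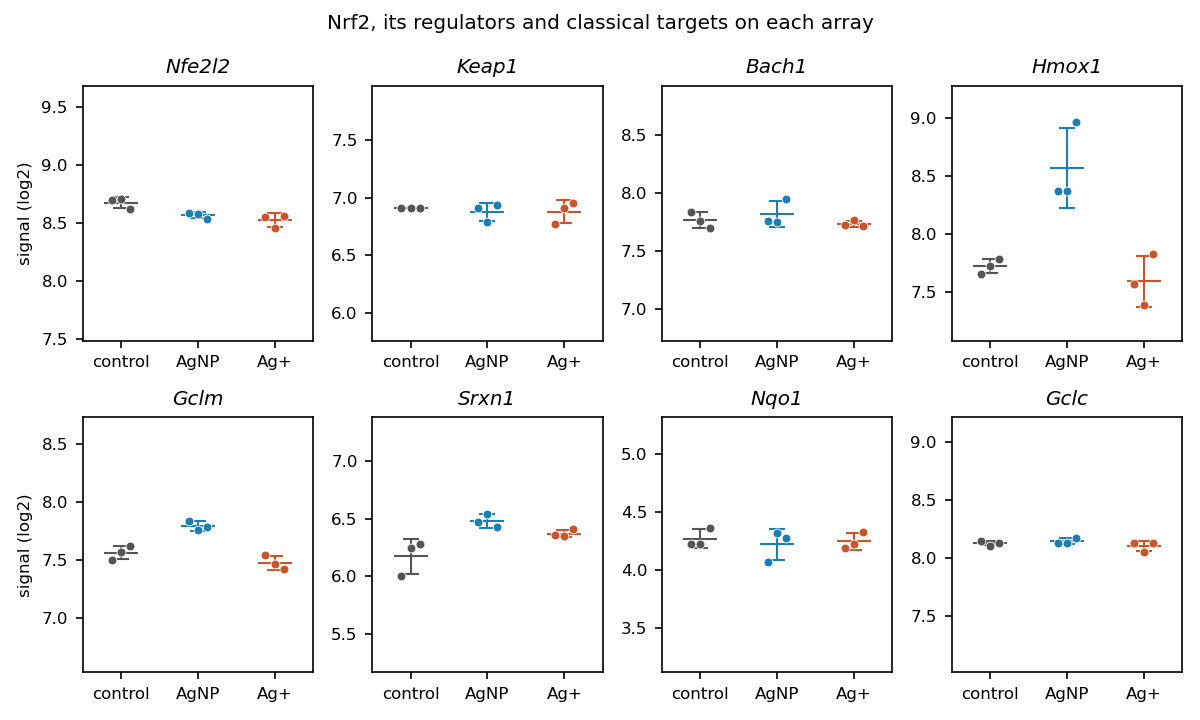
Log2 signal (y axis, the same span in each panel) of each array by group for Nrf2 (Nfe2l2), its regulators and 5 targets; points are arrays, and the bar and whiskers are the mean and SD of 3 replicates. Hmox1 has its 3 highest arrays with AgNPs, at 8.37, 8.37 and 8.97, and Gclm and Srxn1 have theirs there too with smaller differences, whereas Nqo1 and Gclc overlap between groups.

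Me1, the cytosolic malic enzyme that makes NADPH, fell with Ag+. Its controls read 8.23, 7.92 and 7.71, its AgNP arrays 8.22, 7.97 and 7.78 and its Ag+ arrays 7.08, 6.83 and 6.91. The AgNP arrays lay within the range of the controls, and every Ag+ array lay below both. Me1 fell by 1.01 on the log2 scale with Ag+ (SE 0.146, 2.02-fold, limma adjusted p = 0.00739) and differed by 0.04 with AgNPs (interval −0.29 to 0.36, adjusted p = 0.957). The level with AgNPs exceeded that with Ag+ by 1.05 (adjusted p = 0.0214). That call was lost without control replicate 2, AgNP replicate 1 or 2, or Ag+ replicate 2 or 3, at differences of 0.93 to 1.06 and an adjusted p of 0.0521 to 0.122.

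The measured enzymes of the pentose phosphate pathway, a main NADPH source, did not pass the test in any contrast. G6pdx and Tkt, of the same pathway, had no value here. Pgd, 6-phosphogluconate dehydrogenase, differed by −0.03 with AgNPs and −0.03 with Ag+, and Taldo1, transaldolase, by 0.00 and −0.06. The intervals of both lay within a 1.5-fold change. Of the wider list described further on, Pgls differed by 0.04 with Ag+, Rpia by −0.16, Rpe by −0.16 and H6pd, of the endoplasmic reticulum, by 0.12, and the arrays of each overlapped the controls.

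Glrx, the cytosolic glutaredoxin that removes glutathione from protein thiols, showed the largest fall of any member. Its controls read 5.91, 5.75 and 5.48, its AgNP arrays 5.96, 5.56 and 5.48 and its Ag+ arrays 4.63, 4.80 and 4.28. The Ag+ arrays lay below all the others, with replicate 3 lowest, and the AgNP arrays overlapped the controls. Glrx fell by 1.14 on the log2 scale with Ag+ (SE 0.169, 2.2-fold, limma adjusted p = 0.00827) and differed by −0.05 with AgNPs (interval −0.43 to 0.34). AgNP minus Ag+ was 1.09 (adjusted p = 0.0353), a call lost without control replicate 2 or any 1 of the AgNP or Ag+ arrays (0.95 to 1.21, adjusted p 0.0706 to 0.129). The mitochondrial Glrx2 differed by −0.01 with either silver form and Glrx3, which acts in iron handling, by −0.01 and 0.06.

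Markers of several cell types, from lists chosen with earlier results of these data known, moved with the same arrays. Of all named probe sets, 2.28% were called with Ag+ and 0.0868% with AgNPs. Of 14 listed visceral endoderm markers, 13 were measured and 6 were called lower with Ag+ (Ttr, Apob, Amn, Cubn, Lrp2 and Dab2), with 0 called higher and 0 called with AgNPs. Sox17 and Foxa2 of the same list had Ag+ arrays above all controls, at differences of 0.30 (limma adjusted p = 0.0722) and 0.38 (adjusted p = 0.185). The summed linear signal of the 13 was 1781 to 2193 in the controls, 1649 to 2101 with AgNPs and 919 to 1066 with Ag+, and none of them was at 0. Of 10 parietal endoderm markers, 4 were called lower and 1 higher with Ag+, and their sums were 3144 to 3585, 3035 to 3392 and 2436 to 2610. Of 9 measured primitive streak and early mesoderm markers, Eomes and Wnt3 were called lower and Tbx6 higher, and the sums were 1757 to 2320, 1853 to 2035 and 1294 to 1750. Of 10 pluripotency markers, 1 (Klf4) was called lower, and the sums of that list overlapped. The part of these cell types in the fall of Me1 and Glrx was not tested, nor was it for the rises with Ag+ described next. The sum of 9 primitive blood and endothelium markers was 686 to 838 in the controls, 436 to 547 with AgNPs and 297 to 366 with Ag+, but without Kdr, the 1 gene of that list called with Ag+, the other 8 summed to 161 to 169, 153 to 162 and 169 to 184. With AgNPs the difference of Kdr was −0.79 (adjusted p = 0.197), and its part in the values of Hmox1, Gclm and Srxn1 was not tested.

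**Figure D3:**
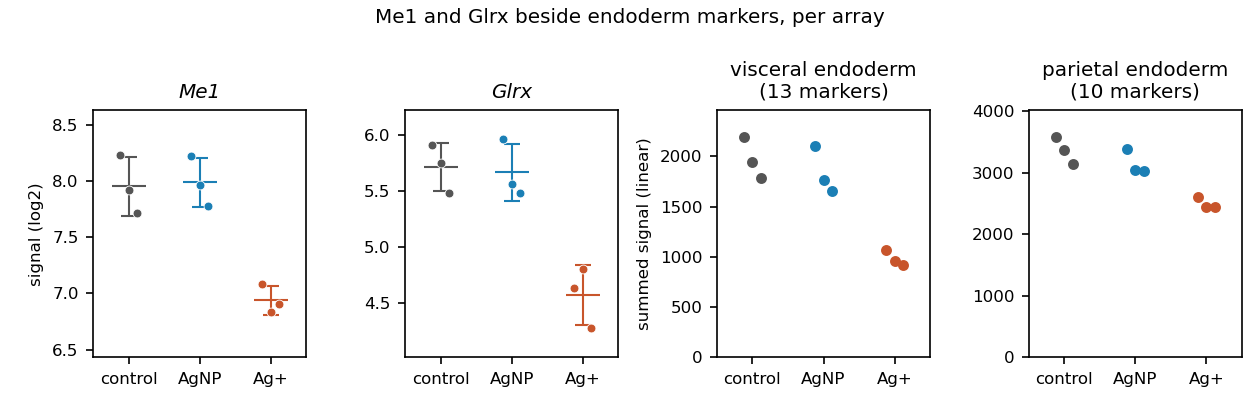
The 2 left panels give the log2 signal of Me1 and Glrx on each array with mean and SD of 3 replicates, and the 2 right panels the summed linear signal of visceral and parietal endoderm markers on each array. All 4 measures are lowest on the Ag+ arrays, where the visceral endoderm sum is 919 to 1066 against 1781 to 2193 in the controls. Cubn, Dab2 and Lrp2, the visceral endoderm markers with the highest control signal, weigh most in that sum.

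Among the glutathione transferases, which join glutathione to electrophiles, 2 of 9 measured genes, counted with the exporter Abcc1, rose with Ag+. Gstm1, of the mu class, read 6.32, 6.42 and 6.36 in the controls, 6.60, 6.75 and 6.56 with AgNPs and 6.73, 6.73 and 6.92 with Ag+. All silver-treated arrays lay above all controls, and the arrays of the silver forms overlapped. The rise with Ag+ was 0.43 (SE 0.0769, 1.34-fold, limma adjusted p = 0.0224), and the difference with AgNPs was 0.27 (SE 0.0769, adjusted p = 0.383). The call with Ag+ was lost without any 1 of the controls or without Ag+ replicate 2 or 3 (0.36 to 0.46, adjusted p 0.0564 to 0.0793). AgNP minus Ag+ was −0.16 (interval −0.33 to 0.02, adjusted p = 0.657), so a difference between the forms was not shown.

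Gsta4, the alpha-class enzyme that clears the lipid peroxidation product 4-hydroxynonenal, followed the same order. Its controls read 8.84, 8.93 and 8.92, its AgNP arrays 9.19, 9.11 and 9.10 and its Ag+ arrays 9.30, 9.12 and 9.41. Again every silver-treated array exceeded every control, with overlap between the silver forms. The rise with Ag+ was 0.38 (SE 0.0774, 1.3-fold, limma adjusted p = 0.0385), the difference with AgNPs 0.24 (adjusted p = 0.457), and AgNP minus Ag+ −0.14 (interval −0.32 to 0.03). Leaving out any array but Ag+ replicate 2 ended the call with Ag+ (0.32 to 0.40, adjusted p 0.0539 to 0.123).

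The other 7 members of the group, namely Gsto1, Gstt1, Gstk1, Mgst1, Mgst2, Mgst3 and Abcc1, which exports glutathione conjugates, did not pass the test in any contrast. Their differences ran from −0.06 (Mgst1) to 0.15 (Mgst2) with AgNPs and from −0.08 (Gstt1) to 0.14 (Gstk1) with Ag+. Gstk1 had the widest interval with Ag+, −0.34 to 0.62, in a fit that shares the spread of all groups. Its controls spread from 5.36 to 6.17 and its AgNP arrays from 5.56 to 6.25.

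Of the enzymes that remove peroxide and superoxide, none passed the test. Prdx2, Prdx4 and Cat, a pair of peroxiredoxins and catalase, differed by 0.04, 0.04 and −0.03 with AgNPs and by 0.08, 0.03 and −0.06 with Ag+. Prdx3, the mitochondrial peroxiredoxin, read 7.70, 7.74 and 7.51 in the controls, 7.61, 7.45 and 7.32 with AgNPs and 7.53, 7.30 and 7.54 with Ag+. Its groups overlapped, and its differences of −0.19 and −0.20 did not pass the test (adjusted p = 0.635 and 0.433). Gpx8, a peroxidase of the endoplasmic reticulum, read 6.90, 6.66 and 6.86 in the controls, 7.01, 6.60 and 6.95 with AgNPs and 7.14, 7.12 and 7.25 with Ag+. Its Ag+ arrays lay above all the others, but the difference of 0.36 (interval 0.11 to 0.62) had an adjusted p of 0.175. Its relative Gpx7 differed by −0.03 and −0.01.

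The cytosolic Sod1 differed by 0.13 with AgNPs and 0.17 with Ag+, the mitochondrial Sod2 by −0.05 and −0.08 and the extracellular Sod3 by 0.04 and 0.11. The thioredoxins Txn1 and Txn2, the cytosolic and the mitochondrial form, differed by 0.09 and −0.07 with AgNPs and by 0.10 and −0.07 with Ag+. Fth1, the ferritin heavy chain that stores iron, differed by −0.08 with AgNPs and by −0.13 with Ag+, where all 3 arrays (11.28, 11.26 and 11.28) lay under the lowest control of 11.37. None of these passed the test.

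**Figure D4:**
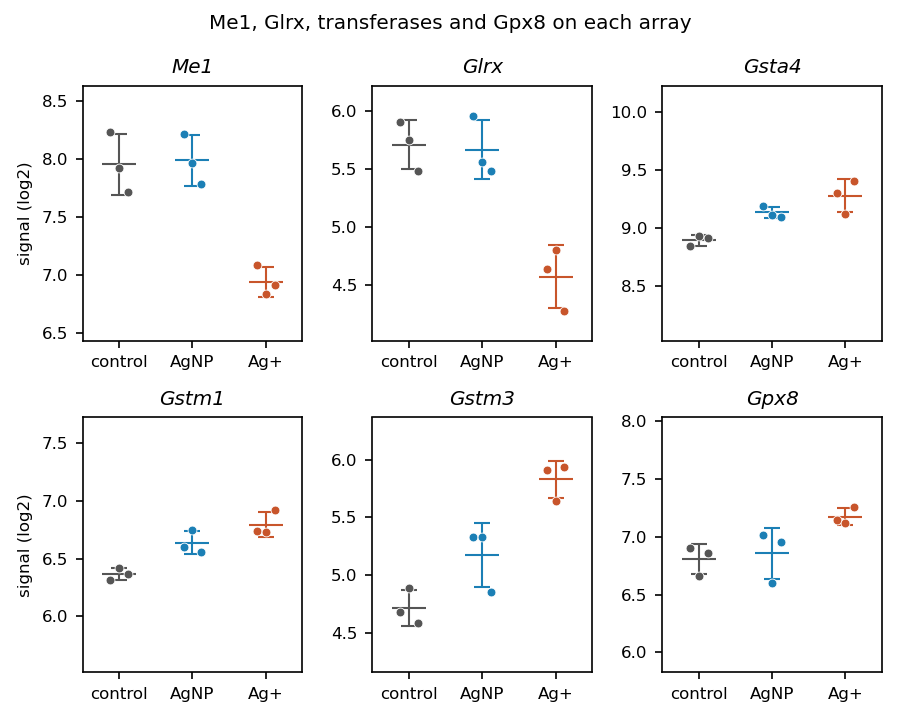
Log2 signal (y axis, the same span in each panel) on each array by group for Me1, Glrx, Gsta4, Gstm1, Gpx8 and Gstm3, a further mu-class transferase; points are arrays, and the bar and whiskers are the mean and SD of 3 replicates. Me1 and Glrx lie lowest with Ag+, and Gstm3 is highest there, at 5.64 to 5.94 against 4.59 to 4.89 in the controls.

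A wider list of 68 further genes of the same pathways, of which 62 were measured, gave 0 calls with AgNPs (0.0868% of all named probe sets), 1 rise and 1 fall with Ag+ (2.28%) and 0 calls between the silver forms (0.509%). The share called with Ag+ was near that of all named probe sets. At an unadjusted p under 0.05, 3 were higher and 4 lower with AgNPs (8.44% of all named probe sets). With Ag+, 3 were higher and 6 lower (13.8%). Between the silver forms, 5 had their higher and 3 their lower level in the AgNP group (8.31%). The gene that rose was Gstm3, a mu-class transferase, at 4.68, 4.89 and 4.59 in the controls, 5.34, 5.34 and 4.86 with AgNPs and 5.91, 5.64 and 5.94 with Ag+. Its Ag+ arrays lay above all the others, and AgNP replicate 3 lay among the controls. Gstm3 was 2.16-fold higher with Ag+ (1.11 on the log2 scale, SE 0.143, limma adjusted p = 0.0041), and differed by 0.46 with AgNPs (adjusted p = 0.429) and by −0.65 for AgNP minus Ag+ (adjusted p = 0.129). Mu-class transferases are alike in sequence, and whether the probe set of one reads signal of another was not tested. The remaining mu genes of the list did not pass the test: with Ag+, Gstm2 differed by 0.02, Gstm4 by −0.16, Gstm6 by 0.32 and Gstm7 by 0.15.

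Ugdh, which makes UDP-glucuronate for conjugation, was the gene that fell, at 8.06, 8.29 and 8.39 in the controls, 8.01, 7.99 and 8.01 with AgNPs and 7.94, 7.75 and 7.75 with Ag+. Its fall with Ag+ was −0.43 (SE 0.0916, limma adjusted p = 0.0475), which was lost without any 1 array but control replicate 1 (−0.49 to −0.36, adjusted p 0.051 to 0.172). With AgNPs its difference was −0.24 (adjusted p = 0.528).

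The glutathione-degrading enzymes Chac1 and Chac2 had the smallest unadjusted p of the list with AgNPs, in opposite directions. Chac1 read 6.77, 6.97 and 6.93 in the controls, 7.07, 7.20 and 7.23 with AgNPs and 6.97, 6.95 and 6.75 with Ag+. Its AgNP arrays lay above all the others, with a difference from control of 0.28 (adjusted p = 0.41). Chac2 read 5.30, 5.34 and 5.19 in the controls, 4.91, 4.80 and 5.05 with AgNPs and 4.99, 4.89 and 5.07 with Ag+. Both silver forms lay below the controls, by −0.36 (adjusted p = 0.268) and −0.29 (adjusted p = 0.133).

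Sqstm1, the autophagy receptor that binds Keap1 and is itself a Nrf2 target, read 9.24, 9.28 and 9.24 in the controls, 9.25, 9.39 and 9.46 with AgNPs and 9.09, 8.95 and 9.03 with Ag+. All Ag+ arrays lay below the rest. The difference between the silver forms was 0.35 (interval 0.19 to 0.50, limma adjusted p = 0.086), and from control it was 0.11 with AgNPs and −0.23 with Ag+.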

How the data were processed

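The authors labelled total RNA of EBs, hybridised it to Affymetrix Mouse Gene 2.0 ST arrays and ran RMA in Affymetrix Expression Console 1.3; the deposited log2 values of 41345 probe sets on 9 arrays were used unchanged. Genes came from the platform annotation: 23521 probe sets name 1 gene, 1820 several and 16004 none, and the 25341 named were tested. Groups came from the sample labels. The study's filter on unexpressed probe sets was not applied.

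Limma 3.58.1 (R 4.3.3, tables read by the package data.table, version 1.17.8) fitted 3 group means to 9 arrays (lmFit, eBayes; 3 two-sided contrasts; Benjamini-Hochberg), after a test on simulated data. Intervals are at the 95% level. Figures used matplotlib 3.10.9.

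The members, the wider and marker lists and the rule for named genes were chosen with earlier results of these data known. Arrays are given in full for members past either threshold, for the 2 with the smallest unadjusted p in each direction and contrast, and for the core Nrf2 genes. Replicate numbers were not taken to pair samples in the main fit, since nothing in the labels ties them. Some same-numbered arrays, those of replicate 1 among them, did deviate together, and a replicate block was run as an alternative. Alternatives tried were other limma options, samples, probe sets and centring, each array left out and the methods' t-test.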

Additional observations from a re-analysis of the deposited data

Results flagged for a closer look

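For 3 members the effects of the silver forms differed in the direct test of AgNP minus Ag+. With AgNPs, log2 signals exceeded those with Ag+ by 0.97 for Hmox1, 1.05 for Me1 and 1.09 for Glrx (limma adjusted p = 0.0451, 0.0214 and 0.0353, 3 arrays a group). These calls depended on the processing: they held in 6, 10 and 8 of 18 other limma settings, and in 0 members when only the compared groups were fitted. For Hmox1 the AgNP arrays stood apart from control, and for Me1 and Glrx the Ag+ arrays did.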

How the results depend on the processing

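The falls of Me1 and Glrx and the rise of Gstm3 with Ag+ were called in each of 18 limma settings (highest adjusted p 0.0429, 0.0468 and 0.0305). Hmox1 with AgNPs was called in 0 of 18 (0.65 to 0.98, adjusted p 0.0643 to 0.395), and its difference between the silver forms in 6 of 18 (adjusted p 0.0138 to 0.201). Counts of DEGs by fold change stayed at 1, 2 and 3 in every setting run. Deviations of same-numbered arrays from their group means correlated at −0.056 to 0.233, over 0.1 in 4 of 9 pairs (all 3 of replicate 1) against 2 of 18 pairs of different number, and 5 of 9 arrays correlated best with their own number. The replicate block left 0, 3 and 3 members called with AgNPs, with Ag+ and between the forms (Gsta4 was lost, adjusted p = 0.061) and 1 of the wider list with Ag+, Ugdh being lost.

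Members called with Ag+ numbered 2 in place of 4 when only the compared groups were fitted and when all probe sets were tested. They also numbered 2 without both AgNP replicate 1 and control replicate 3. The methods' t-test after adjustment called 0 members with Ag+, as 0 of all named probe sets, and leaving out each array gave 2 to 3. Between the forms, 3 became 0 in each of the limma settings in which 4 became 2. There the methods' t-test also called 0 members, as 0 of all named probe sets, and leaving out each array gave 0 to 2. Of the wider list with Ag+, 2 became 1 in those limma settings and with centred arrays, and 1 to 2 with each array left out; between the forms 0 became 1 (Sqstm1) with trend and robust options, array weights or a mean signal of at least 5. Gclm was called between the forms in 3 of 18 settings. For these alternative limma settings the share of all named probe sets called was not counted. The cause of these changes was not tested.

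The members' median difference with AgNPs was −0.0033 with array weights, 0.0480 with centred arrays, 0.0340 when the probe sets of a gene were averaged, −0.0189 without the 2 arrays named above and −0.0143 to 0.0546 with each array left out. With centring, which shifts arrays by −0.0531 to 0.059, it was 0.0253 with Ag+ and −0.0138 between the forms. Leaving out each array gave −0.0228 to −0.0102 with Ag+ and −0.0026 to 0.0347 between the forms. The SD of this median between replicates was 0.0147.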
